A study of Homo sapiens with 30 samples.

Results

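The data are gene expression profiles of SUM190 parental cells given ruxolitinib together with paclitaxel, set against the same cells given DMSO. These are 4 of the 30 libraries in the series, 2 per group, chosen by their labels. Genes were kept where at least 2 of the 30 libraries reached 1 CPM, the count of reads scaled to a common library size, which left 12743 of the 20114 genes in the table. SUM190 is an established human inflammatory breast cancer line with amplified ERBB2, and the cells used here are its parental form, not the paclitaxel- or doxorubicin-resistant derivatives of the same study. The combination group (Par_RUX_PTX) is labelled 15 nM ruxolitinib with 2.5 nM paclitaxel. The single-agent groups are Par_RUX, labelled 15 µM ruxolitinib, and Par_PTX_Low, labelled 2.5 nM paclitaxel, with 2 libraries each, and the solvent group is Par_DMSO. Drugs were put on 24 h after seeding and left for 72 h, after which polyadenylated RNA was sequenced. The labels thus give ruxolitinib in nM in the combination and in µM when given alone. Doses are printed as labelled, so each comparison with ruxolitinib alone, and each comparison with the sum of both agents, sets groups side by side whose labelled ruxolitinib doses differ. All groups come from 1 cell line, and the labels do not say whether the 2 libraries of a group came from separate cultures, so p-values measure the spread between libraries, which may be technical.

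Ruxolitinib inhibits JAK1 and JAK2, the kinases that sit on the intracellular side of cytokine receptors. After a cytokine such as interleukin-6 or an interferon binds, these kinases phosphorylate STAT transcription factors, which enter the nucleus and switch on target genes, among them SOCS3, a feedback inhibitor of the same receptors, and, in liver cells, the fibrinogen and other acute-phase genes. Paclitaxel binds the inner face of microtubules and stabilises them, which disturbs the mitotic spindle. The comparison asks what the JAK inhibitor and the taxane do to these cells together, and whether that differs from what the changes with each agent add up to.

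The 8 libraries of these 4 groups held 19018020 to 32669995 reads assigned to genes, recovered from the deposited values. A count of 0 allows up to 0.0967 to 0.153 CPM in them, by counting error only. All 9 genes taken as identity markers of the line, which include ERBB2, GRB7, keratins and EPCAM, were detected in every library. ERBB2, the amplified receptor tyrosine kinase gene, had 2176 and 2602 CPM in the combination libraries, 2852 and 2902 CPM with ruxolitinib alone, 2782 and 2862 CPM with paclitaxel alone and 2469 and 3140.3 CPM with DMSO. GATA3, the lowest of the 9, had 44.4 CPM in combination library 1. Summed levels of 22 markers of immune, endothelial and stromal cells were 39.9 and 39.1 CPM with the combination, against 34.4 and 32.7 CPM with ruxolitinib, 48.4 and 50.9 CPM with paclitaxel and 38.2 and 39.2 CPM with DMSO, with 6 of the 22 at 0 in each combination library. The B-cell gene MS4A1 and the T-cell gene CD3E were at 0 in both combination libraries. Mitochondrially encoded transcripts made up 0.962% and 1.16% of CPM with the combination, against 0.511% and 0.929% with DMSO.

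Relative to DMSO, 848 genes were higher and 1055 lower with the combination, 14.9% of the genes tested (limma on log2(CPM + 1), Benjamini-Hochberg adjusted p below 0.05, 6.65% higher and 8.28% lower). Differences are on that log2(CPM + 1) scale throughout, which understates the change of genes near 1 CPM, the error given is the standard error (SE) of the fit with 2 libraries per group, and the median difference over all genes was -0.02. Most changes were small: 57 genes were higher and 44 lower by more than 1 on the log2 scale. With ruxolitinib alone 13.2% of genes differed from DMSO (702 higher, 5.51%, and 983 lower, 7.71%), and with paclitaxel alone 26.8% (1237 higher, 9.71%, and 2177 lower, 17.1%). All 3 comparisons use the same 2 DMSO libraries. The shares of all genes in this paragraph are the background for the counts of list members below. Set directly against the single agents, the combination differed from paclitaxel alone at 3561 genes (27.9%; 1920 higher, 15.1%, and 1641 lower, 12.9%) and from ruxolitinib alone at 554 genes (4.35%; 369 higher, 2.9%, and 185 lower, 1.45%). The split against paclitaxel turned with the scaling and the libraries: it was 1720 higher and 1770 lower with median-of-ratios scaling, 457 and 568 without paclitaxel library 2 and 363 and 373 without combination library 1. The split against ruxolitinib became 920 higher and 1229 lower with GC content and length modelled. The counts rest on few libraries. Against DMSO the combination count was 947 without combination library 1 and 1356 without combination library 2, and the paclitaxel count was 535 without paclitaxel library 2, 476 without DMSO library 1 and 5172 without DMSO library 2. The ruxolitinib count was 869 and 751 without ruxolitinib library 1 or 2. The 3561 genes that differed from paclitaxel alone became 736 without combination library 1 and 1025 without paclitaxel library 2, and the 554 that differed from ruxolitinib alone became 200 to 278 when any one of the 4 libraries compared was left out. Within the DMSO group and within the combination group, the difference between the 2 libraries followed the GC content of the genes (Spearman's rho over genes 0.68 for the combination and 0.80 for DMSO). With GC content and gene length modelled, 4008 genes differed between combination and DMSO. In bulk RNA such as this, fewer cells of one kind and less RNA per cell cannot be told apart.

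**Figure D1:**
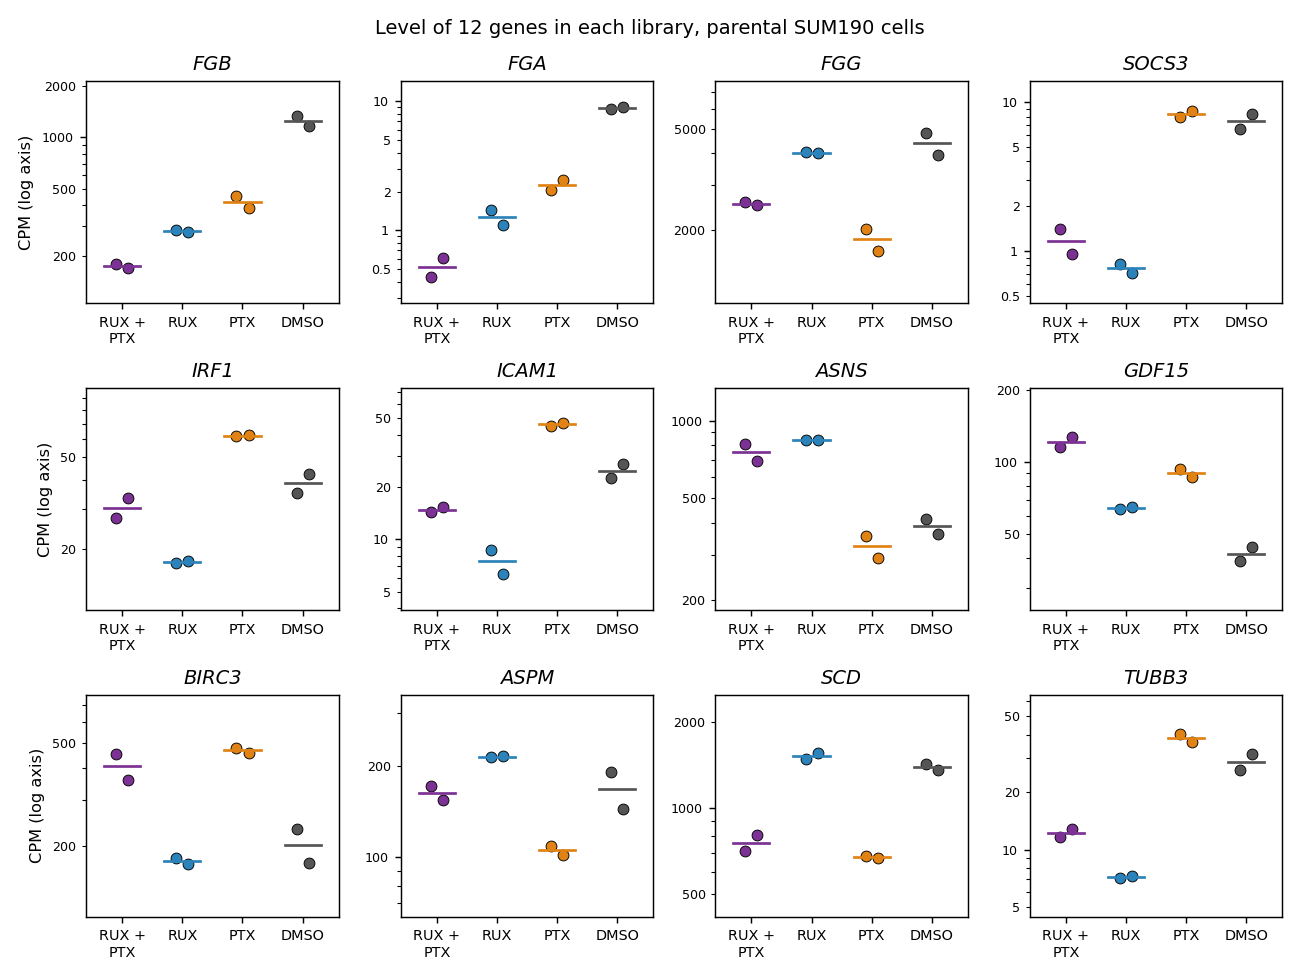
Levels of 12 genes in each library (CPM, log axis) for the combination, ruxolitinib, paclitaxel and DMSO groups; points are the 2 libraries of a group and bars their mean. FGB falls with either agent and is lowest with the combination (180.4 and 171 CPM against 1334 and 1169 CPM with DMSO), SOCS3 is low wherever ruxolitinib was given, and ICAM1 and IRF1 lie between a low ruxolitinib and a high paclitaxel level.

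The fibrinogen genes FGB and FGA had the deepest falls of the 12743 genes. Fibrinogen, the clotting protein that the liver secretes in larger amounts during the acute-phase response, is built from 3 chains encoded by FGA, FGB and FGG, which lie side by side on human chromosome 4. FGB had 180.4 and 171 CPM in the combination libraries, 287 and 279 CPM with ruxolitinib alone, 452 and 384 CPM with paclitaxel alone and 1334 and 1169 CPM with DMSO. Each agent lowered it, and both combination libraries were below all 6 of the others. The log2 difference from DMSO was -2.83 ± 0.12 (SE; adjusted p = 7.33e-14) with the combination, -2.14 with ruxolitinib and -1.58 with paclitaxel. The combination also lay below ruxolitinib alone, at -0.69 ± 0.12 (SE; adjusted p = 0.000711). Mean CPM of FGB with the combination was 0.14 times that with DMSO.

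FGA showed the same order at a far lower level, with 0.437 and 0.61 CPM with the combination, against 1.44 and 1.09 CPM with ruxolitinib, 2.06 and 2.45 CPM with paclitaxel and 8.74 and 8.99 CPM with DMSO. Its difference from DMSO was -2.70 ± 0.19 (SE; adjusted p = 1.18e-09). FGG behaved in another way. It had 2559.7 and 2502 CPM with the combination, against 4034 and 4025 CPM with ruxolitinib, 2015 and 1638 CPM with paclitaxel and 4824 and 3941 CPM with DMSO. Paclitaxel alone lowered FGG most (-1.26 ± 0.11 SE, adjusted p = 1.05e-07), ruxolitinib alone did not change it past the threshold (-0.11 ± 0.11 SE, adjusted p = 0.559), and the combination lay between, -0.79 ± 0.11 (SE; adjusted p = 1.5e-05) against DMSO and 0.48 ± 0.11 (SE; adjusted p = 0.00271) against paclitaxel. The fibrinogen-like gene FGL1, which encodes a liver-secreted protein, had 1.75 and 1.6 CPM with the combination, against 12.6 and 11.8 CPM with DMSO, a difference of -2.31 ± 0.16 (SE; adjusted p = 7.16e-10).

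The 250 bases before the annotated starts of the 3 fibrinogen genes are shown because these genes fell together although their levels and their responses to the single agents differ. They come from RefSeq on GRCh38.p14, a later build than the one used for counting, and were matched by gene symbol. Capitals mark matches to 2 letter patterns linked with STAT factors: TTCNNNGAA, the palindrome bound by STAT dimers, and CTGGGAA, the type of interleukin-6 response element described in fibrinogen promoters. Among 35116 such RefSeq windows 6.57% held TTCNNNGAA and 9.15% held CTGGGAA on either strand. FGB is on the plus strand, and in the window shown, chr4:154562730-154562979, its match spans bases -112 to -106 before the start. Before a second annotated FGB start, with the window chr4:154562761-154563010, the same match spans -143 to -137. FGA is on the minus strand, chr4:154590743-154590992, with a match at -231 to -223, and FGG is on the minus strand, chr4:154612657-154612906, with a match at -161 to -155. Such a match is a description of the letters and not a measured binding site.
FGB: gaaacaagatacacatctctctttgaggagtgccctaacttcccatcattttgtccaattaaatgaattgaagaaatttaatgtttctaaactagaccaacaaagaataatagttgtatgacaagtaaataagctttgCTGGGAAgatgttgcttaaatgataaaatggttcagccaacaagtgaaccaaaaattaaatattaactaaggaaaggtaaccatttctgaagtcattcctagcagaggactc
FGA: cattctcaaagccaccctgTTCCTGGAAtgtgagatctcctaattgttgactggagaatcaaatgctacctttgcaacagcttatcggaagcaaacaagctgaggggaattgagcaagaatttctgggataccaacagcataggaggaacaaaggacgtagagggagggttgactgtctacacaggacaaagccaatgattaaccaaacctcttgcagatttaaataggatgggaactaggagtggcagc
FGG: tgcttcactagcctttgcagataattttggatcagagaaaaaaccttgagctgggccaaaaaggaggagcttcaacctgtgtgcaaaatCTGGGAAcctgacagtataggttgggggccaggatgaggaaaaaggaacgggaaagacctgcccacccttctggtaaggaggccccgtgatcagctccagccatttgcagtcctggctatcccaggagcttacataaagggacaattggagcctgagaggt

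Of 22 acute-phase genes tested (25 in the table), 11 were lower and 5 higher with the combination, with a median difference of -0.24. The falls included the protease inhibitors SERPINA1 (176 and 189 CPM with the combination, against 279 and 307 CPM with DMSO, -0.68 ± 0.08 SE, adjusted p = 2.73e-06) and SERPINA3, and the copper-carrying ferroxidase CP (719.7 and 665 CPM with the combination, against 1271 and 1108 CPM with DMSO, -0.78 ± 0.10 SE, adjusted p = 5.58e-06). SERPINA3 had 15.99 and 18.9 CPM with the combination, against 10.2 and 10.3 CPM with ruxolitinib, 55.4 and 53.2 CPM with paclitaxel and 39.2 and 40.03 CPM with DMSO. Its combination level was thus above that of ruxolitinib alone, with a difference of 0.71 ± 0.13 (SE; adjusted p = 0.00231), and below that of paclitaxel alone, with a difference of -1.59 ± 0.13 (SE; adjusted p = 2.37e-08). The genes that rose were other members of the same response. C3, the central complement component, had 41.8 and 45.5 CPM with the combination, against 26.6 and 26.8 CPM with ruxolitinib, 32.1 and 30.9 CPM with paclitaxel and 17.2 and 20.8 CPM with DMSO, and the combination libraries were above all the others (1.16 ± 0.10 SE, adjusted p = 2.99e-08 against DMSO). SAA1, which encodes serum amyloid A, had 30.2 and 35.4 CPM with the combination, against 13.8 and 20.9 CPM with DMSO (0.90 ± 0.14 SE, adjusted p = 0.000114), although it shares near-identical sequence with SAA2, so that counts may be split between the 2 genes.

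Among the components of JAK-STAT signalling, 5 of 33 genes tested were lower and 1 higher (median -0.11). IL6, the cytokine that signals through gp130 and JAK1, had 6.11 and 6.78 CPM with the combination, against 5.51 and 4.37 CPM with ruxolitinib, 15.1 and 13.4 CPM with paclitaxel and 15.5 and 16.5 CPM with DMSO. Both combination libraries were below both paclitaxel and both DMSO libraries (-1.19 ± 0.14 SE, adjusted p = 1.93e-06 against DMSO). OSMR, the receptor subunit for oncostatin M, had 121 and 105 CPM with the combination, against 224 and 206 CPM with DMSO (-0.92 ± 0.10 SE, adjusted p = 8.12e-07). STAT3, which is itself a STAT3 target, had 150.2 and 163 CPM with the combination, against 145 and 142 CPM with ruxolitinib, 224 and 229 CPM with paclitaxel and 206 and 227 CPM with DMSO, a difference from DMSO of -0.46 ± 0.07 (SE; adjusted p = 7.9e-05). The rise was IL6R, the ligand-binding receptor chain, with 52.3 and 51.98 CPM with the combination, against 32.1 and 31.3 CPM with ruxolitinib, 58.7 and 60.9 CPM with paclitaxel and 36.1 and 39.9 CPM with DMSO. IL6R was higher with the combination (0.45) and with paclitaxel (0.64) and lower with ruxolitinib (-0.25). JAK1, the main kinase for interleukin-6 receptors, had 179.99 and 168 CPM with the combination, against 162 and 147 CPM with DMSO, and JAK2 30.8 and 24.8 CPM with the combination, against 29.99 and 26.01 CPM with DMSO; neither difference passed the threshold (adjusted p = 0.145 and 0.966), but JAK1 was called higher with GC content and length modelled (0.18, adjusted p = 0.00641).

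Of 31 feedback and STAT3 target genes tested, 12 were lower and 0 higher with the combination, with a median of -0.19, against -0.28 with ruxolitinib and 0.10 with paclitaxel. SOCS3, which binds JAK kinases and gp130 and shuts the receptor off, had 1.4 and 0.953 CPM in the combination libraries, 0.823 and 0.713 CPM with ruxolitinib alone, 7.996 and 8.68 CPM with paclitaxel alone and 6.64 and 8.32 CPM with DMSO. The 4 libraries with ruxolitinib were all below the 4 without it. The combination differed from DMSO by -1.96 ± 0.18 (SE; adjusted p = 3.31e-08), and from ruxolitinib alone by 0.29 with a 95% interval of -0.07 to 0.66. The NF-kB coactivator BCL3 had 33.5 and 38.5 CPM with the combination, against 66.3 and 81.4 CPM with DMSO (-1.01 ± 0.13 SE, adjusted p = 7.96e-06). NNMT, which methylates nicotinamide, had 62.8 and 62.5 CPM with the combination, against 130.2 and 151 CPM with DMSO (-1.15 ± 0.09 SE, adjusted p = 5.49e-09), and the transcription factor gene CEBPD fell to 12.3 and 12.6 CPM, against 22.1 and 25.6 CPM with DMSO. For NNMT the combination differed from ruxolitinib alone by 0.06 (95% interval -0.13 to 0.25). HIF1A, ICAM1, OSMR, SERPINA3 and STAT3 itself were also among the 12, some of which sit in other lists too. Against paclitaxel alone 18 of the 31 genes were lower with the combination, a count that was 10 without combination library 1 and 10 without paclitaxel library 2.

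**Figure D2:**
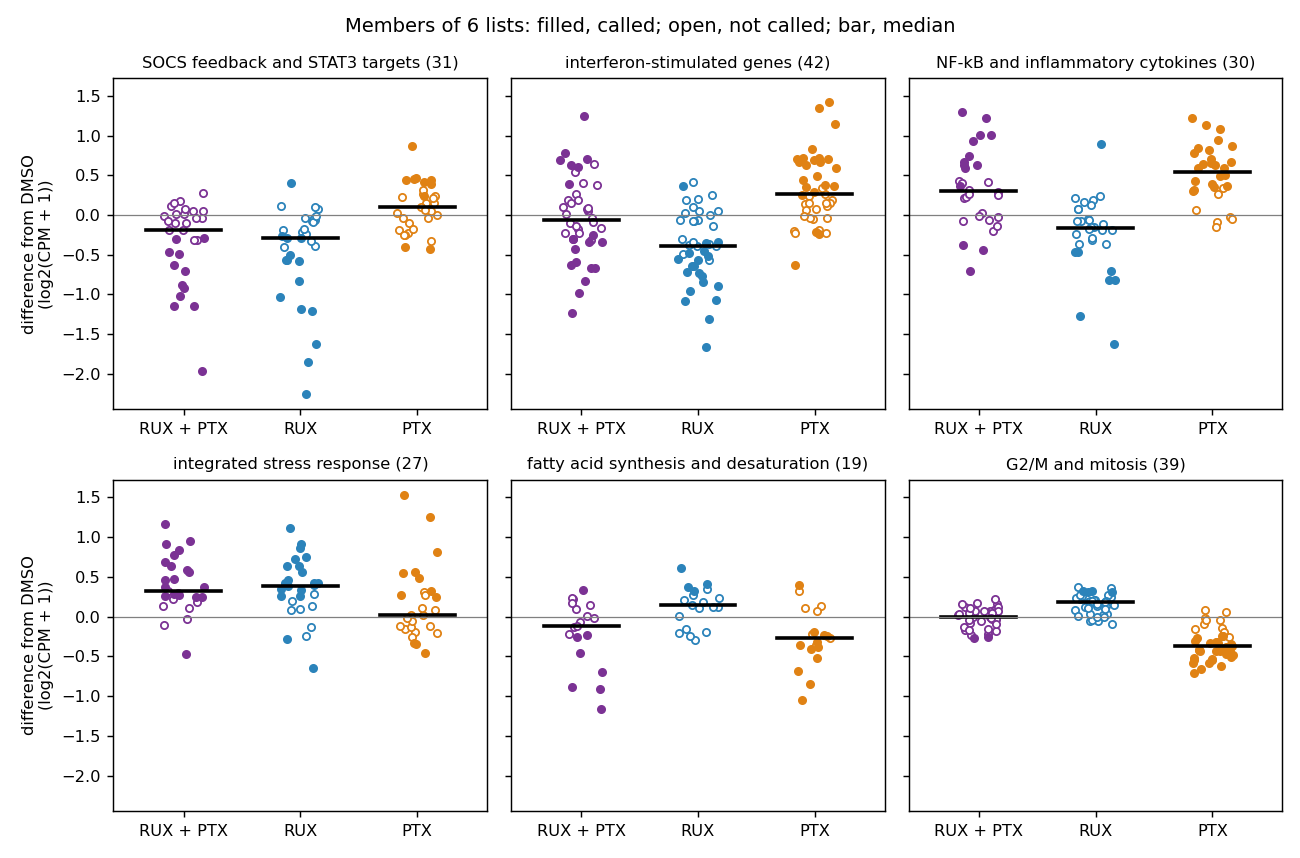
Differences from DMSO (log2(CPM + 1) scale) of the members of 6 gene lists for the combination, ruxolitinib and paclitaxel; each point is 1 gene, filled where limma's adjusted p is below 0.05, and bars are medians. SOCS and STAT3 targets lie low with the combination (median -0.19) and with ruxolitinib (-0.28), NF-kB genes lie high with the combination (0.30) and with paclitaxel (0.54), and G2/M genes have a median of -0.01 with the combination and -0.37 with paclitaxel.

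Interferon-stimulated genes split. Of 42 tested, 7 were higher and 12 lower with the combination (median -0.07), whereas the medians were -0.39 with ruxolitinib and 0.26 with paclitaxel. IRF1, a transcription factor gene induced by interferons, had 27.3 and 33.4 CPM in the combination libraries, 17.5 and 17.8 CPM with ruxolitinib alone, 61.7 and 62.5 CPM with paclitaxel alone and 35.1 and 42.5 CPM with DMSO. The combination libraries were below the DMSO libraries, but above both ruxolitinib libraries and below both paclitaxel libraries. Its difference from DMSO was -0.35 ± 0.10 (SE; adjusted p = 0.0224), which lost significance without combination library 1 (adjusted p = 0.33) or DMSO library 2 (0.236). IRF1 differed from ruxolitinib alone by 0.74 ± 0.10 (SE; adjusted p = 6.03e-05) and from paclitaxel alone by -1.02 ± 0.10 (SE; adjusted p = 3.05e-07). IFIT2, an antiviral RNA-binding protein gene, had 10.5 and 11.1 CPM with the combination, against 3.87 and 3.09 CPM with ruxolitinib, 15.5 and 16.2 CPM with paclitaxel and 5.67 and 7.74 CPM with DMSO, so that it was high with the combination where ruxolitinib alone lowered it (1.41 ± 0.14 SE, adjusted p = 1.42e-06 between the 2 groups). Its rise against DMSO (0.63 ± 0.14 SE, adjusted p = 0.00332) was lost without DMSO library 1 (adjusted p = 0.072). The chemokine gene CXCL10 had 4.15 and 3.7 CPM with the combination, against 2.3 and 1.28 CPM with ruxolitinib, 2.18 and 2.6 CPM with paclitaxel and 1.01 and 1.13 CPM with DMSO and was highest with the combination (1.25 ± 0.19 SE, adjusted p = 7.15e-05 against DMSO). PARP9, which works with DTX3L in interferon responses, had 29.6 and 27.9 CPM with the combination, against 28.6 and 26.01 CPM with ruxolitinib, 60.2 and 58.7 CPM with paclitaxel and 72.5 and 65.5 CPM with DMSO. PARP9 was low wherever ruxolitinib was given (-1.24 ± 0.08 SE, adjusted p = 1.21e-10). The antiviral membrane protein genes IFITM2 and IFITM3 fell likewise (-0.98 and -0.83). Near-identical copies of these 2 genes make the split of reads uncertain.

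ICAM1, the adhesion molecule that leukocyte integrins bind, is a target of both STAT and NF-kB factors. It had 14.3 and 15.3 CPM in the combination libraries, 8.64 and 6.28 CPM with ruxolitinib alone, 45.05 and 46.4 CPM with paclitaxel alone and 22.5 and 27.1 CPM with DMSO. No library of one group overlapped another. ICAM1 differed from DMSO by -0.70 ± 0.13 (SE; adjusted p = 0.000397) with the combination, -1.62 with ruxolitinib and 0.86 with paclitaxel. The RefSeq window before the ICAM1 start, chr19:10270870-10271119 on the plus strand of GRCh38.p14, is shown because its level carries the opposed changes with the 2 agents. It holds a match to TTCNNNGAA, in capitals, at -75 to -67. Of the 9 genes whose windows were searched, FGA, IRF1 and CISH held TTCNNNGAA too. FGB, FGG and the first SOCS3 window held CTGGGAA, the SOCS3 match on the opposite strand. SERPINA3, BCL3 and the second SOCS3 window held neither pattern.
ICAM1: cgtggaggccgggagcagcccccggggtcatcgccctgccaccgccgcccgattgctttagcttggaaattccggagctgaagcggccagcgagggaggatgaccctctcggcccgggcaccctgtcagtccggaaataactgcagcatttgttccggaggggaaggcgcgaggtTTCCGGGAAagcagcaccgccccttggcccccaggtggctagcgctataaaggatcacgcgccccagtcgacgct

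Of 21 genes of antigen presentation tested, 5 were lower with the combination than with DMSO and 0 higher (median -0.21, against -0.38 with ruxolitinib and 0.23 with paclitaxel), a count that fell to 1 without combination library 1, 3 without combination library 2 and 0 without DMSO library 2. Against paclitaxel alone, 15 of the 21 were lower (median -0.51), where 12.9% of all genes were lower. Among the 15 were the immunoproteasome subunit genes PSMB8, PSMB9 and PSMB10 and the peptide transporter gene TAP1. Over all genes the calls against paclitaxel alone depended on single libraries, and the count of 15 may too. PSMB10 had 12.3 and 13.5 CPM with the combination, against 8.27 and 9.84 CPM with ruxolitinib, 23.7 and 21.5 CPM with paclitaxel and 16.6 and 20.3 CPM with DMSO. B2M, the invariant light chain of class I molecules, had 947 and 800.03 CPM with the combination, against 943 and 816 CPM with DMSO, a difference of -0.01 (95% interval -0.21 to 0.19).

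Of 30 NF-kB target and inflammatory cytokine genes tested, 11 were higher and 3 lower with the combination (median 0.30, against 0.54 with paclitaxel and -0.17 with ruxolitinib). The falls, ICAM1, CSF1 and NFKBIZ, became 1 without combination library 2 or DMSO library 1. BIRC3, an inhibitor of apoptosis that NF-kB induces, had 450.4 and 360.02 CPM in the combination libraries, 179.7 and 170.3 CPM with ruxolitinib alone, 479 and 457 CPM with paclitaxel alone and 231 and 172 CPM with DMSO. The combination libraries were above those of ruxolitinib and DMSO and just below those of paclitaxel (1.01 ± 0.17 SE, adjusted p = 0.00023 against DMSO and 1.20 ± 0.17 SE, adjusted p = 0.000116 against ruxolitinib). IL8, the neutrophil chemokine now named CXCL8, had 473 and 377 CPM with the combination, against 199 and 199 CPM with ruxolitinib, 371 and 300.5 CPM with paclitaxel and 246 and 179 CPM with DMSO (1.01 ± 0.18 SE, adjusted p = 0.00034 against DMSO), and both combination libraries were above all the others. CCL20, a chemokine for cells that carry CCR6, had 77.1 and 64.6 CPM with the combination, against 33.8 and 31.9 CPM with ruxolitinib, 49.7 and 44.3 CPM with paclitaxel and 42.9 and 31.2 CPM with DMSO. Its combination libraries too were above the other 6, by 0.58 ± 0.13 (SE; adjusted p = 0.00261) against paclitaxel alone and 1.08 ± 0.13 (SE; adjusted p = 7.67e-06) against ruxolitinib alone. TNFAIP3, which encodes the feedback inhibitor A20, had 18.2 and 17.2 CPM with the combination, against 8.72 and 9.23 CPM with ruxolitinib, 24.8 and 25.9 CPM with paclitaxel and 10.2 and 12.8 CPM with DMSO; it rose against DMSO (0.59 ± 0.11 SE, adjusted p = 0.000605) and was lower than with paclitaxel alone (-0.49 ± 0.11 SE, adjusted p = 0.00283). The maturation marker CD83 and the non-canonical subunit gene RELB rose by 1.29 and 0.66. Against ruxolitinib alone 16 of the 30 genes were higher and 0 lower, with 10 higher without ruxolitinib library 2.

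Genes of the integrated stress response, which ATF4 drives when the eIF2 initiation factor is phosphorylated or amino acids run short, mostly rose. Of 27 tested, 18 were higher and 1 lower with the combination, with a median of 0.32, against 0.39 with ruxolitinib and 0.03 with paclitaxel. The amino acid synthesis genes followed the ruxolitinib libraries. ASNS, asparagine synthetase, had 810.4 and 694 CPM in the combination libraries, 836 and 838 CPM with ruxolitinib alone, 356 and 292 CPM with paclitaxel alone and 413 and 361 CPM with DMSO. All 4 libraries with ruxolitinib were above the 4 without (0.96 ± 0.10 SE, adjusted p = 4.36e-07 for the combination against DMSO), and the combination differed from ruxolitinib alone by -0.16 (95% interval -0.37 to 0.05). PSAT1 and PHGDH, 2 enzymes of serine synthesis, rose by 0.59 and 0.69 against DMSO, and the cysteinyl-tRNA synthetase gene CARS by 0.47. Of the other members, ATF3 and PPP1R15A were higher in the combination and paclitaxel libraries than in the ruxolitinib and DMSO libraries. ATF3, a stress-induced transcription factor gene, had 40.1 and 39.6 CPM with the combination, against 15.02 and 16.3 CPM with ruxolitinib, 40.3 and 45.4 CPM with paclitaxel and 15.02 and 19.9 CPM with DMSO. The combination and paclitaxel libraries of ATF3 stood together above the rest (1.16 ± 0.12 SE, adjusted p = 2.82e-07 against DMSO; -0.10 against paclitaxel, 95% interval -0.34 to 0.15). PPP1R15A, the GADD34 subunit that reverses eIF2 phosphorylation, had 20.4 and 23.9 CPM with the combination, against 9.67 and 11.1 CPM with ruxolitinib, 34.2 and 41.8 CPM with paclitaxel and 10.6 and 14.6 CPM with DMSO, and its combination level was below that of paclitaxel alone (-0.75 ± 0.16 SE, adjusted p = 0.00248). CHAC1, which breaks down glutathione, and the stress sensor gene SESN2 were higher with each of the 3 treatments (0.84 and 0.64 with the combination). The member that fell was ATF5 (-0.47 ± 0.13 SE, adjusted p = 0.0168), a call that was lost without combination library 1 (adjusted p = 0.238) or DMSO library 2 (0.315).

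GDF15, a stress cytokine gene of this response and of others, was among the strongest rises. It had 116 and 128 CPM in the combination libraries, 63.7 and 64.96 CPM with ruxolitinib alone, 94.1 and 86.6 CPM with paclitaxel alone and 38.7 and 44.2 CPM with DMSO. Each agent raised it and the combination libraries were above all the others, by 1.53 ± 0.09 (SE; adjusted p = 8.34e-11) against DMSO, 0.43 ± 0.09 (SE; adjusted p = 0.00263) against paclitaxel and 0.91 ± 0.09 (SE; adjusted p = 1.93e-06) against ruxolitinib. The combination change lay -0.20 from the sum of the single-agent changes (95% interval -0.47 to 0.08).

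**Figure D3:**
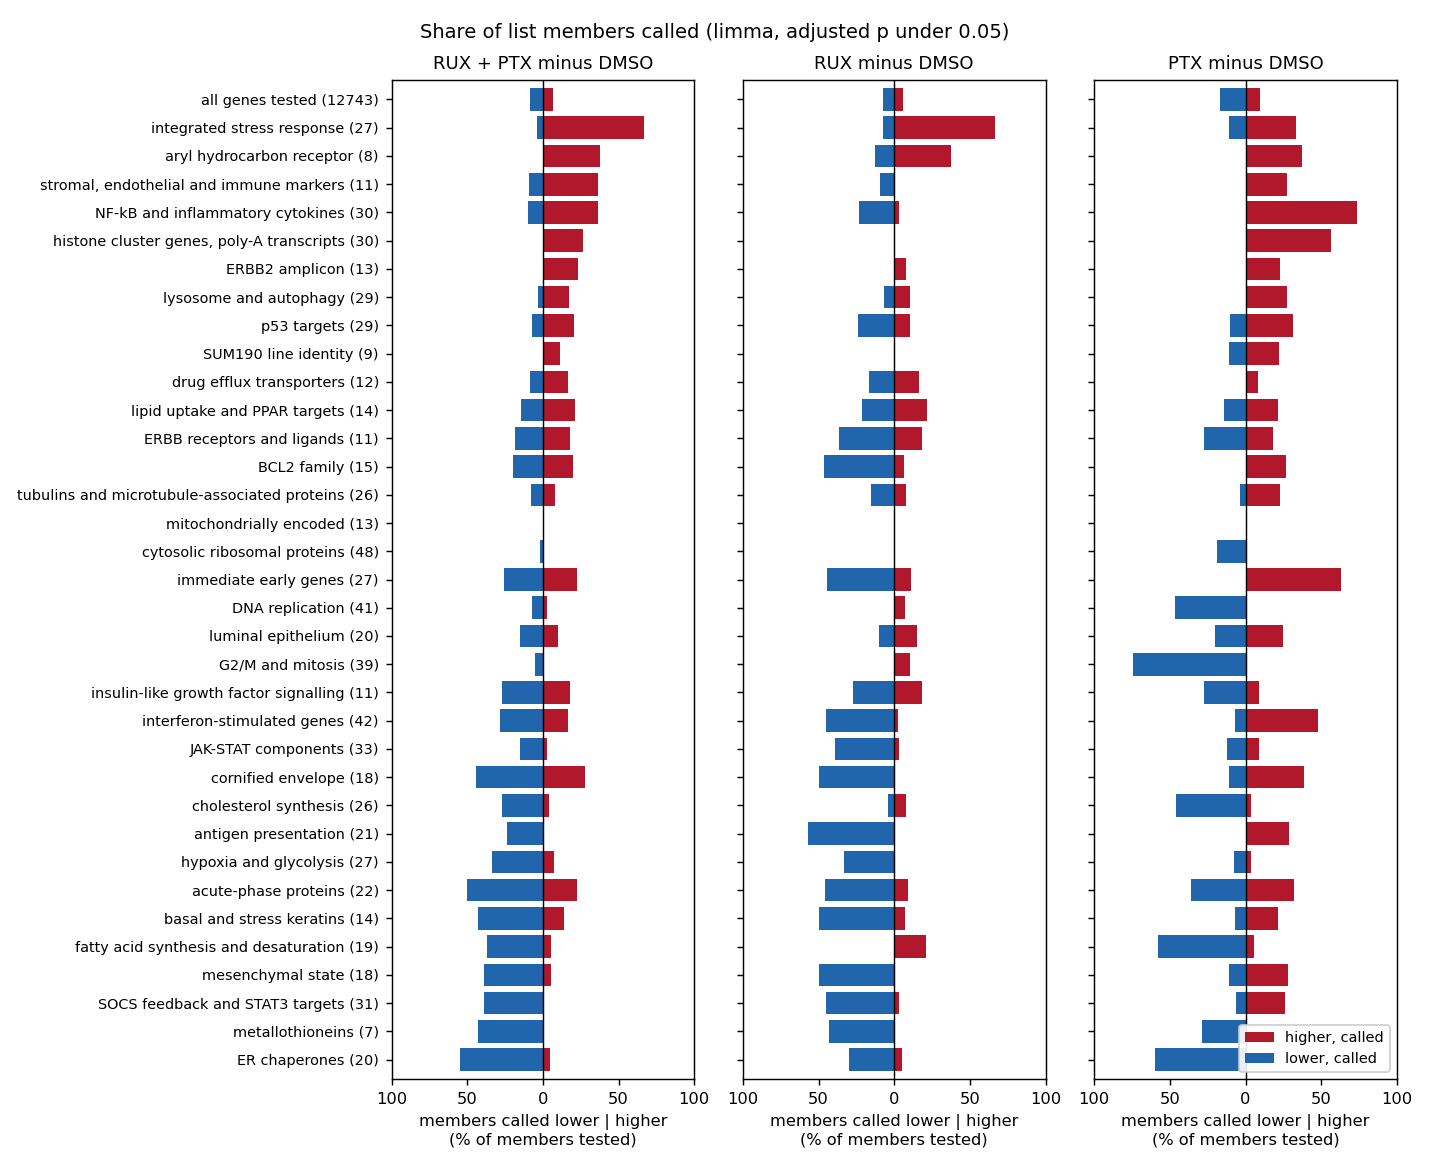
Share of the tested members of 34 gene lists, and of all genes, called higher or lower than DMSO (percent) for the combination, ruxolitinib and paclitaxel. The integrated stress response has 18 of 27 members higher with the combination, the acute-phase list 11 of 22 lower, and the G2/M list 2 of 39 lower with the combination, against 29 with paclitaxel.

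Few genes of mitosis differed from DMSO with the combination, while most were lower with paclitaxel alone. Of 39 genes that peak in G2 and M phase, 0 were higher and 2 lower with the combination (CENPA and KIF20A, both lost without combination library 1, at adjusted p = 0.319 and 0.255; median -0.01), against 29 lower with paclitaxel (median -0.37) and 4 higher with ruxolitinib (median 0.18; 0 higher without either ruxolitinib library and 7 without DMSO library 1). ASPM, a spindle pole protein gene, had 172 and 154 CPM in the combination libraries, 214 and 215 CPM with ruxolitinib alone, 109 and 101.2 CPM with paclitaxel alone and 191 and 144 CPM with DMSO. DLGAP5, a spindle assembly factor gene, had 164 and 151 CPM with the combination, against 197 and 192 CPM with ruxolitinib, 100.8 and 85.3 CPM with paclitaxel and 175 and 132 CPM with DMSO. In both genes the 2 paclitaxel libraries were the lowest of the 8, and the combination differed from paclitaxel by 0.63 ± 0.16 (SE; adjusted p = 0.00628) for ASPM and 0.75 ± 0.13 (SE; adjusted p = 0.000301) for DLGAP5. Set directly against paclitaxel alone, 29 of the 39 were higher with the combination and 0 lower (median 0.38). That count was 10 without combination library 1 and 10 without paclitaxel library 2, and with GC content and length modelled it was 30 with a median of 0.21. The paclitaxel count of 29 was 4 without paclitaxel library 2 and 5 without DMSO library 1. Against ruxolitinib alone the median was -0.15; 0 of the genes were called lower, and 19 with GC content and length modelled.

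With the combination 1 of 41 DNA replication genes were higher and 3 lower than with DMSO (median -0.11; 1 lower without combination library 1 and 6 without DMSO library 1), and with paclitaxel alone 19 were lower (median -0.25), 8 without paclitaxel library 2 and 8 without DMSO library 1. Among all genes 6.65% were higher and 8.28% lower with the combination, and 17.1% were lower with paclitaxel alone. PCNA, the sliding clamp of the replication fork, had 167 and 142 CPM with the combination, against 167 and 164 CPM with ruxolitinib, 116 and 105 CPM with paclitaxel and 169 and 141 CPM with DMSO, and differed from DMSO by -0.003 (95% interval -0.22 to 0.22) with the combination. CDKN1A, the p21 inhibitor of cell-cycle kinases, had 45.9 and 54.95 CPM with the combination, against 36.99 and 36.2 CPM with ruxolitinib, 70.8 and 69.5 CPM with paclitaxel and 45.7 and 57.6 CPM with DMSO. The ruxolitinib and paclitaxel levels of CDKN1A lay on opposite sides of DMSO (-0.48 and 0.44), and the combination differed from DMSO by -0.03 (95% interval -0.25 to 0.19).

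Part of the lipid synthesis genes fell. Of 19 genes of fatty acid synthesis and desaturation, 7 were lower and 1 higher than with DMSO (median -0.11), with 3 lower without combination library 1 and 3 without DMSO library 2. SCD, the desaturase that makes oleate, had 710.1 and 804 CPM in the combination libraries, 1489.6 and 1565 CPM with ruxolitinib alone, 681 and 668 CPM with paclitaxel alone and 1436 and 1368 CPM with DMSO. The combination and paclitaxel libraries stood together, below the other 4. SCD differed from DMSO by -0.89 ± 0.10 (SE; adjusted p = 8.28e-07), from ruxolitinib by -1.01 ± 0.10 (SE; adjusted p = 8.23e-07) and from paclitaxel by 0.16 (95% interval -0.04 to 0.37). FADS1 and FADS2, the desaturases of polyunsaturated fatty acids, fell as well (-0.91 and -1.16 against DMSO). FASN, fatty acid synthase, had 619 and 828 CPM with the combination, against 996 and 1347 CPM with DMSO, and its difference of -0.69 ± 0.15 (SE; adjusted p = 0.00204) was not past the threshold without combination library 1 (adjusted p = 0.0833) or DMSO library 2 (0.0544).

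Of 26 cholesterol synthesis and uptake genes, 7 were lower and 1 higher (median -0.18), with 4 lower without combination library 1. STARD4, a cholesterol carrier gene, had 42.7 and 40.4 CPM with the combination, against 69.98 and 53.3 CPM with DMSO (-0.55 ± 0.13 SE, adjusted p = 0.00481, and adjusted p = 0.0971 without DMSO library 1). The squalene synthase gene FDFT1 had 95.1 and 103 CPM with the combination, against 147 and 138 CPM with DMSO (-0.52 ± 0.09 SE, adjusted p = 0.000134). Against ruxolitinib alone 9 of the cholesterol genes and 8 of the fatty acid genes were lower with the combination and none higher. Those counts were 4 for cholesterol genes without ruxolitinib library 1, 4 without ruxolitinib library 2 and 5 without combination library 1, and 4 for fatty acid genes without combination library 1, 5 without ruxolitinib library 1 and 5 without ruxolitinib library 2.

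Of 26 genes of tubulins, the target of paclitaxel, and of microtubule-associated proteins, 2 were higher and 2 lower with the combination (median 0.01). Over all genes 6.65% were higher and 8.28% lower, so these counts do not set the list apart. TUBB3, a beta-tubulin isotype best known from neurons, had 11.7 and 12.9 CPM in the combination libraries, 7.12 and 7.23 CPM with ruxolitinib alone, 40.4 and 36.6 CPM with paclitaxel alone and 26.02 and 31.6 CPM with DMSO. The 4 groups of TUBB3 did not overlap, and the combination was lower than DMSO, with a difference of -1.16 ± 0.11 (SE; adjusted p = 6.92e-08), where paclitaxel alone was higher (0.41 ± 0.11 SE, adjusted p = 0.01) and ruxolitinib alone lower (-1.86 ± 0.11 SE, adjusted p = 4.16e-11). TUBB6 fell as well (-0.73 ± 0.14 SE, adjusted p = 0.000814). MAP1B, a microtubule-binding protein gene, had 25.03 and 22.98 CPM with the combination, against 9.46 and 9.7 CPM with ruxolitinib, 15.95 and 19.9 CPM with paclitaxel and 8.09 and 7.51 CPM with DMSO, and both combination libraries were above the other 6 (1.51 ± 0.15 SE, adjusted p = 1.05e-07 against DMSO). MAPRE2, an end-binding protein gene, was the other rise (0.35), lost without combination library 1 (adjusted p = 0.0999). The main beta-tubulin gene TUBB had 1174 and 1274 CPM with the combination, against 1190.3 and 1411 CPM with DMSO, a difference of -0.08 (95% interval -0.23 to 0.07).

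Among 12 drug transporter genes tested, ABCC4 and ABCG1 were higher with the combination (0.62 and 0.64; ABCC4 at adjusted p = 0.0565 without combination library 1) and the vault protein gene MVP was lower (-0.75), with 3 genes lower without DMSO library 1. The shares over all genes were 6.65% higher and 8.28% lower. ABCB1, which encodes the P-glycoprotein that exports paclitaxel, did not pass the filter on low values: it was at 0 in 1 combination library and at 0.114 CPM in the other, the worth of 3 reads. MVP had 34.6 and 37.8 CPM with the combination, against 29.5 and 28.9 CPM with ruxolitinib, 80.1 and 84.5 CPM with paclitaxel and 54.6 and 69.4 CPM with DMSO.

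Keratins of basal and stressed epithelium, proteins of the cornified envelope and matrix genes fell in part. Of 14 keratin-list genes tested, 6 were lower and 2 higher (median -0.21; 0 higher without combination library 2 or DMSO library 1). KRT6A, a keratin of activated epidermis, had 73.7 and 97.7 CPM with the combination, against 72.98 and 71.9 CPM with ruxolitinib, 289 and 284 CPM with paclitaxel and 263 and 305 CPM with DMSO, so that all 4 libraries with ruxolitinib were below the 4 without (-1.73 ± 0.14 SE, adjusted p = 1.33e-08 against DMSO). KRT6B and KRT6C are near-identical copies of KRT6A, and the division of reads among them is uncertain. KRT16, the partner of KRT6A, had 29.3 and 35.6 CPM with the combination, against 46.9 and 57.4 CPM with DMSO (-0.67 ± 0.12 SE, adjusted p = 0.000293). Of 18 cornified envelope genes, 8 were lower and 5 higher (median -0.40), 5 lower without combination library 1 and 5 lower and 2 higher without combination library 2, and 2 higher without DMSO library 1. S100A8, a chain of the antimicrobial protein calprotectin, had 302 and 338 CPM with the combination, against 853 and 1006 CPM with DMSO (-1.53 ± 0.11 SE, adjusted p = 1.18e-09). Its partner chain gene S100A9 had 1162 and 1333 CPM with the combination, against 2452 and 3215 CPM with DMSO (-1.17 ± 0.10 SE, adjusted p = 1.81e-08). TGM1, the transglutaminase that cross-links the envelope, had 3.54 and 3.85 CPM with the combination, against 1.42 and 1.06 CPM with DMSO and rose (1.07 ± 0.18 SE, adjusted p = 0.000162). Among 18 genes of the mesenchymal list, 7 were lower and 1 higher, 4 lower without combination library 1. FN1, fibronectin, had 13.3 and 16.8 CPM with the combination, against 12.5 and 12.03 CPM with ruxolitinib, 24.7 and 24.4 CPM with paclitaxel and 37.8 and 39.7 CPM with DMSO (-1.31 ± 0.12 SE, adjusted p = 4.79e-08 against DMSO). The hyaluronan receptor gene CD44 and the matrix protein gene TGFBI fell too (-0.85 and -1.06).

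The 24 genes with the widest differences from DMSO, 12 in each direction, with a mean of at least 5 CPM in 1 of the 2 groups and libraries that do not overlap, fell into a few patterns when set beside the single agents. Some had nearly the combination level with paclitaxel alone. DHRS2, a short-chain dehydrogenase gene, had 7.16 and 7.85 CPM in the combination libraries, 1.19 and 1.28 CPM with ruxolitinib alone, 7.01 and 6.58 CPM with paclitaxel alone and 0.89 and 1.51 CPM with DMSO, and the combination differed from paclitaxel by 0.12 (95% interval -0.20 to 0.45) and from ruxolitinib by 1.93 ± 0.16 (SE; adjusted p = 1.66e-07). MAFF, a small MAF transcription factor gene, was also high in the groups with paclitaxel (21.7 and 24.6 CPM with the combination, against 9.3 and 8.37 CPM with ruxolitinib, 26.05 and 28.2 CPM with paclitaxel and 7.04 and 10.8 CPM with DMSO). Others had nearly that level with ruxolitinib alone. HTR3A, a serotonin-gated channel subunit gene, had 0.961 and 0.838 CPM in the combination libraries, 0.535 and 0.713 CPM with ruxolitinib alone, 9.93 and 9.19 CPM with paclitaxel alone and 7.41 and 8.9 CPM with DMSO, and the difference between combination and ruxolitinib was 0.23 (95% interval -0.03 to 0.49). TRIM9, a ubiquitin ligase gene, rose by 1.57 with the combination and 1.96 with ruxolitinib, and the adhesion gene CDH3, the tenascin gene TNC and the pyrimidine-degrading enzyme gene DPYD fell, with differences of -1.57, -1.85 and -1.83 with the combination, against -1.62, -1.72 and -1.91 with ruxolitinib.

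A further set moved the same way with both agents. CYP1A1, the oxidase that the aryl hydrocarbon receptor induces, had 38.96 and 34.3 CPM in the combination libraries, 19.6 and 21.6 CPM with ruxolitinib alone, 30.7 and 35.4 CPM with paclitaxel alone and 9.79 and 11.4 CPM with DMSO. Each agent raised it, and the combination exceeded ruxolitinib alone (0.80 ± 0.14 SE, adjusted p = 0.000792) but not paclitaxel alone past the threshold (0.14, 95% interval -0.14 to 0.43). The epithelial sodium channel subunit genes SCNN1G and SCNN1B rose by 1.64 and 1.41, the cytidine deaminase gene APOBEC3B by 1.32, the receptor gene EPHB6 by 1.37 and the small GTPase gene RASD1 by 1.30, each also higher with either agent. KRT86, which shares sequence with other hair keratins, rose by 1.45. HPGD, which inactivates prostaglandins, had 7.03 and 6.14 CPM with the combination, against 12.2 and 11.2 CPM with ruxolitinib, 11.2 and 7.71 CPM with paclitaxel and 31.6 and 22.7 CPM with DMSO, a difference from DMSO of -1.88 ± 0.17 (SE; adjusted p = 3.13e-08). The chemokine gene CXCL17 had 11.6 and 11.2 CPM with the combination, against 15.3 and 15.2 CPM with ruxolitinib, 40.02 and 35.5 CPM with paclitaxel and 49.6 and 53.5 CPM with DMSO (-2.08 ± 0.11 SE, adjusted p = 4.95e-12).

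**Figure D4:**
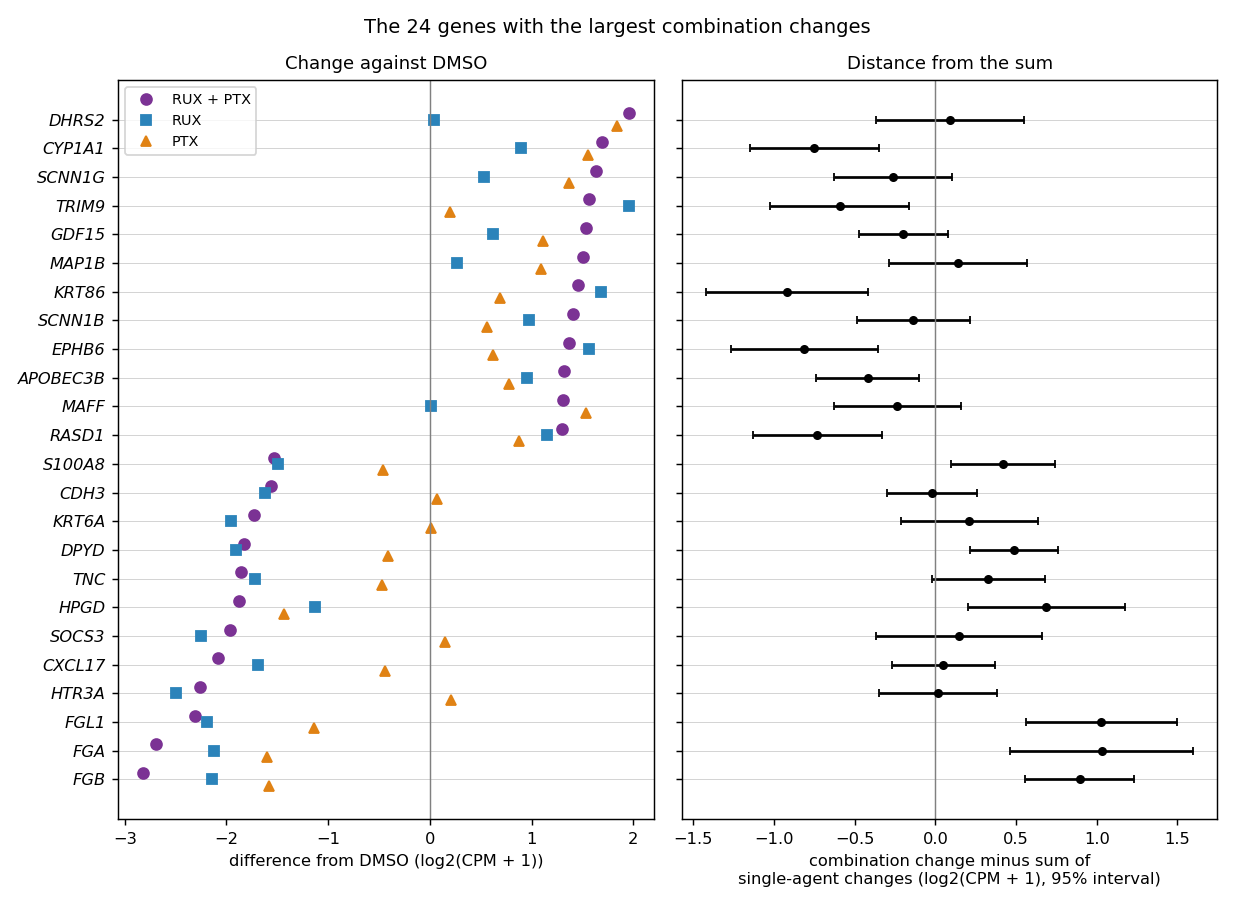
The 24 genes with the widest differences between combination and DMSO. The left panel gives the difference from DMSO (log2(CPM + 1) scale) for the combination, ruxolitinib and paclitaxel, and the right panel gives the combination change minus the sum of the single-agent changes with its 95% interval. FGB lies 0.89 and FGA 1.03 above their sums, CYP1A1 lies at -0.75, and DHRS2, HTR3A and CXCL17 at 0.09, 0.02 and 0.05.

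Of the 12743 genes tested, 15.1% were higher and 12.9% lower with the combination than with paclitaxel alone. The shares were 2.9% and 1.45% against ruxolitinib alone. Genes that passed both tests in the same direction numbered 34 higher and 20 lower with the combination. Of these, 21 and 19 also reached 5 CPM and had both combination libraries beyond all 4 single-agent libraries. How many of all genes meet that last condition was not counted, so the 21 and 19 only show how the genes named here were chosen. From the 21 and 19, the 10 in each direction with the widest gaps were taken. Among the higher ones, besides CCL20, C3 and GDF15, were MAP1LC3B, the autophagosome protein gene, with 245 and 214 CPM with the combination, against 143 and 146 CPM with ruxolitinib, 172 and 149.7 CPM with paclitaxel and 138 and 113 CPM with DMSO, and the sodium channel gene SCNN1B. CA8, a carbonic anhydrase-related gene that lacks the enzyme activity, had 14.2 and 12.9 CPM with the combination, against 9.96 and 9.42 CPM with ruxolitinib, 9.69 and 8.47 CPM with paclitaxel and 6.44 and 6.06 CPM with DMSO. ID2, an inhibitor of helix-loop-helix transcription factors, had 32.5 and 30.3 CPM with the combination, against 22.4 and 21.7 CPM with ruxolitinib, 23.9 and 19.4 CPM with paclitaxel and 25.1 and 19.9 CPM with DMSO, with no change past the threshold under either agent. ID2 differed from DMSO by 0.47 ± 0.13 (SE; adjusted p = 0.0125), a call lost without combination library 1 (adjusted p = 0.109) or DMSO library 2 (0.157). GDAP1 and CCDC28A showed the same order, each with calls against DMSO that were lost when 1 library was left out (GDAP1 at 0.273 without combination library 1 and 0.277 without DMSO library 2, CCDC28A at 0.0798 and 0.0965 without them). The histone gene HIST1H2AC, one of many near-identical copies, was the last (0.68 ± 0.13 SE, adjusted p = 0.000758).

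Among the lower ones, besides FGB and CXCL17, was GLUL, glutamine synthetase, with 309 and 353 CPM in the combination libraries, 544 and 543 CPM with ruxolitinib alone, 428 and 401 CPM with paclitaxel alone and 723 and 673 CPM with DMSO. Each agent lowered it and the combination libraries were below all the others (-1.08 ± 0.08 SE, adjusted p = 1.94e-09 against DMSO, -0.33 ± 0.08 SE, adjusted p = 0.00545 against paclitaxel, -0.71 ± 0.08 SE, adjusted p = 4.29e-06 against ruxolitinib). MXRA5, a matrix protein gene, had 15.2 and 17.3 CPM with the combination, against 26.001 and 25.4 CPM with ruxolitinib, 23.04 and 24.3 CPM with paclitaxel and 36.9 and 39.4 CPM with DMSO. RDH10, a retinol dehydrogenase gene, had 368 and 326 CPM with the combination, against 488 and 464 CPM with ruxolitinib, 444 and 429 CPM with paclitaxel and 684 and 553 CPM with DMSO. The transcription factor gene TFAP2B and the formin-related gene DAAM2 fell too (-0.76 and -0.73). PROM2 and SLC25A1, the mitochondrial citrate carrier gene, fell with the combination (-0.63 and -0.53), where neither agent alone changed them past the threshold; for SLC25A1 the fall was not past the threshold without combination library 1 (adjusted p = 0.0972) or without DMSO library 2 (0.0536). IQCD, a gene whose product carries a calmodulin-binding motif, was the exception. It had 6.51 and 6.52 CPM in the combination libraries, 9.38 and 8.94 CPM with ruxolitinib alone, 8.08 and 9.19 CPM with paclitaxel alone and 6.31 and 6.22 CPM with DMSO, higher with each single agent (0.48 and 0.40) and 0.05 (95% interval -0.21 to 0.31) from DMSO with the combination.

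Whether the combination differed from the sum of the single-agent changes was tested gene by gene. No gene passed at an adjusted p below 0.05 (0% of 12743 genes), with limma; 1515 genes (11.9%) had an unadjusted p below 0.05, and the smallest adjusted p was 0.134. With limma voom on the recovered reads the count was also 0, and it was 15 with GC content and length modelled, 12 without paclitaxel library 1 and 4 without DMSO library 2. On the log2(CPM + 1) scale the fit bounds most genes, if the libraries are taken as independent. Replicate differences of the combination and DMSO groups correlated across genes at r = 0.65. Both groups enter the gap with the same sign, so a shift that they share adds up in it. The intervals below do not allow for that. The median SE of this difference was 0.17 and the 95% interval reached a median of 0.34 to either side. The difference was below 0.5 in size for 97.1% of genes, and its interval lay within -1 to 1 for 12383 genes (97.2%). Genes near or below 1 CPM count toward these shares. Their changes are understated on this scale, so the shares bound their fold changes less. A total of 14 genes had an estimate above 1 in size, none of them with an interval that lay wholly beyond 1. Both the sum and the combination rest on the same DMSO libraries, and the sum takes ruxolitinib at a labelled dose other than that in the combination.

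Wide gaps from the sum lay on both sides among the members described above, positive in some genes that both agents lowered and negative in some that both raised. The DMSO mean enters the gap with a plus sign and each single-agent change with a minus sign. An error in that mean alone would give these opposed signs, and the pattern itself was not tested. FGB differed from DMSO by -2.83 with the combination, against a sum of -3.72, a gap of 0.89 (95% interval 0.56 to 1.23; adjusted p = 0.134). For FGA the gap was 1.03 (95% interval 0.46 to 1.60), but its sum of -3.73 lies below -3.30, the difference from DMSO that a level of 0 CPM gives on this scale, so no measured level could have reached it. FGL1 had a gap of 1.03 (95% interval 0.56 to 1.5) and FN1 of 0.91 (95% interval 0.55 to 1.26). In these 4 genes the combination lay less far below DMSO than the sum did by its estimate, and each passed the threshold in some other fits. For FGB limma's adjusted p was 0.000443 with a replicate block on the 4 groups alone, a fit chosen after seeing the data. FGA and FGL1 passed with that block (0.0459 and 0.0421) and FN1 with GC content and length modelled (0.0137). Without DMSO library 2 the FGB gap was 0.989. Without paclitaxel library 1 the gap was 1.01 for FGB and 1.25 for FGL1. That last fit rests on paclitaxel library 2, which stood apart in the histone cluster genes. CCL20 lay 0.73 above its sum (95% interval 0.35 to 1.10) and IQCD -0.84 from its sum (95% interval -1.21 to -0.47). Both passed with GC content and length modelled (0.044 each). CCL20 and IQCD are among the genes picked because the combination lay beyond both single agents. The same values form the gap, so these intervals and calls are not independent of the choice. On the other side, KRT86 lay -0.92 from its sum (95% interval -1.42 to -0.42) and EPHB6 -0.81 (95% interval -1.27 to -0.36), both past the threshold with the replicate block on the 4 groups (0.0421 each). CYP1A1 lay -0.75 from its sum (95% interval -1.15 to -0.35) and passed with GC content and length modelled in the 4 groups (0.0343). In these 3 genes the combination lay less far above DMSO than the sum did by its estimate. FGA, KRT86, EPHB6 and CYP1A1 passed only in these fits on the 4 groups, which were chosen after seeing the data. They were not called in any other fit run. For SOCS3 and 4 other genes that single agents moved apart or alone, the estimates were 0.15 for SOCS3 (95% interval -0.37 to 0.66), 0.05 for ICAM1 (95% interval -0.32 to 0.42), 0.07 for IRF1 (95% interval -0.23 to 0.37), 0.04 for SCD (95% interval -0.25 to 0.33) and 0.04 for ATF3 (95% interval -0.31 to 0.39). By list, the median gap was 0.20 for mitotic genes, 0.05 for acute-phase genes, -0.03 for NF-kB genes and -0.08 for stress response genes, against 0.03 over all genes. Histone cluster genes had a median gap of -0.50; paclitaxel library 2 stood apart from the other 7 in these genes, with 17.3 CPM of HIST1H1E against 1.65 CPM in paclitaxel library 1.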

How the data were processed

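Poly-A RNA of SUM190 cells (Rneasy extraction, Kapa mRNA kit per the labels' protocols) was sequenced for 30 libraries in 15 groups of 2. The authors deposited 1 table of log2(CPM + 1) values, with CPM scaled by trimmed mean of M values (TMM). The submitters' processing notes name STAR 2.5.1b, edgeR and the build GRCh37 (hg19). The read counter, the gene annotation and whether strand was used were not given in the sources used here, so overlapping and antisense genes cannot be told apart. CPM was recovered from the log2 values, and low values were whole multiples of 1 read for 100% of values (tolerance 0.01), which gave each library's reads (18443749 to 32669995). A limit of 3 reads for a count of 0 covers counting error only.

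Genes with at least 1 CPM in at least 2 libraries (12743) were fitted with limma 3.58.1 (R 4.3.3, trend and robust settings) on log2(CPM + 1) as deposited, pseudocount 1, with 15 group means over all 30 libraries, which share 1 estimate of the spread (15 residual degrees of freedom). 6 comparisons were drawn from this fit, each adjusted by Benjamini-Hochberg over all genes, with a threshold of 0.05. The fit was also run on simulated counts, drawn independently for each gene and library. These held neither the GC trend nor the correlated replicate differences seen here, so they cannot show how those affect the calls. Genes named individually are the 12 in each direction with the widest differences from DMSO and the 10 in each direction beyond both single agents (mean CPM of at least 5 in 1 group, no overlap between libraries), and members of 34 gene lists, of which 726 genes were tested. The members and lists were chosen with earlier results of these data known. Promoter windows are from RefSeq on GRCh38.p14, matched by symbol (9 of 9 genes looked up), and windows of chromosome 8 were not used. Alternatives were the pseudocount, the filter, median-of-ratios scaling, fits on fewer groups and a correction for GC content and length. The others were a replicate block, limma voom on the recovered reads and leaving out each library. The correction fitted splines of GC content and length to each library's deviations from the gene means. The fitted values were taken off before limma, and the degrees of freedom were not lowered for it. Some genes of the lists are not reported individually here.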

Additional observations from a re-analysis of the deposited data

How the results depend on the processing

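No gene named in the text changed the sign of a called difference from DMSO under the alternatives run, but the split against paclitaxel alone, 1920 higher and 1641 lower, turned to 1720 and 1770 with median-of-ratios scaling, 687 and 741 on the 7 parental groups and 945 and 949 on the 4 groups. Against DMSO, the count of 1903 genes for the combination, 1685 for ruxolitinib and 3414 for paclitaxel became 937, 775 and 1000 when only the 7 parental groups shared the spread, and 1017, 809 and 1634 with only the 4 groups compared. The combination then differed from paclitaxel at 1428 and 1894 genes and from ruxolitinib at 172 and 189. With GC content and length modelled, 4008 genes differed for the combination, 3650 for ruxolitinib, 2149 between combination and ruxolitinib, and 15 from the sum of the single agents, and within the 4 groups alone these counts were 3619, 3286, 1778 and 15. Without the filter on low values 1 gene differed from the sum. Leaving out each library in turn gave 947 to 1912 genes for the combination, 751 to 1727 for ruxolitinib, 476 to 5172 for paclitaxel, 736 to 4066 against paclitaxel alone, 200 to 656 against ruxolitinib alone and 0 to 12 for the sum. A pseudocount of 0.25, a minimum of 5 CPM, median-of-ratios scaling and limma voom (chosen after seeing the data, as were the block and the GC fit on 4 groups) gave counts within 1.5 times those reported. A quasi-likelihood count test listed as an alternative was not run, because the deposited unit is log2. The cause of these shifts was not tested.

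Replicate numbers are shared between groups, but the labels do not say what they mark. The differences between libraries 2 and 1 correlated across genes at r = 0.65 between combination and DMSO and at 0.112 to 0.27 between the other pairs of groups. With a replicate block 1821 genes differed between combination and DMSO and 0 differed from the sum. The block with GC content and length gave 3969 genes for the combination, 3607 for ruxolitinib, 2113 between combination and ruxolitinib and 15 from the sum, and the block within the 4 groups gave 10 from the sum.

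The spread rests on 2 libraries a group and 15 degrees of freedom. Of the genes chosen by size, ID2, GDAP1, CCDC28A and SLC25A1 lost their call against DMSO under some alternative. On the log2(CPM + 1) scale genes near 1 CPM, such as FGA and SOCS3, change less than their CPM does.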

Other observations

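Of 20 chaperone genes of the endoplasmic reticulum tested, 11 were lower and 1 higher than with DMSO (median -0.24), with 3 lower without combination library 1, 5 without combination library 2, 5 without DMSO library 1 and 7 without DMSO library 2. HSP90B1, the GRP94 chaperone, had 982 and 987 CPM with the combination, against 1139 and 1095 CPM with ruxolitinib, 1044 and 947 CPM with paclitaxel and 1622 and 1449 CPM with DMSO, a difference of -0.64 ± 0.08 (SE; adjusted p = 8.53e-06), from limma. PDIA4 and CALR, a disulfide isomerase and a lectin chaperone, fell too (-0.58 and -0.45). Genes of hypoxia and glycolysis had 9 of 27 members lower and 2 higher, with 4 lower without combination library 1. PFKFB3, which makes the activator of phosphofructokinase, had 109 and 126 CPM with the combination, against 141 and 142 CPM with ruxolitinib, 179.8 and 177 CPM with paclitaxel and 192 and 206 CPM with DMSO (-0.76 ± 0.07 SE, adjusted p = 4.84e-08), and the combination was below each single agent. The metallothionein gene MT1X, whose product binds zinc and copper, had 399.7 and 500.00 CPM with the combination, against 762 and 965 CPM with DMSO (-0.94). MT2A had 475 and 584 CPM with the combination, against 721 and 960.2 CPM with DMSO (-0.66), and near-identical members of this family may share reads.

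Immediate early genes went both ways. Of 27 tested, 6 were higher and 7 lower with the combination (median -0.07, against -0.33 with ruxolitinib and 0.33 with paclitaxel), with 1 lower without combination library 1, 2 without combination library 2 and 4 without DMSO library 2. JUN, a subunit of AP-1, had 44.1 and 44.7 CPM with the combination, against 33.7 and 32.6 CPM with ruxolitinib, 75.4 and 75.3 CPM with paclitaxel and 55.8 and 64.2 CPM with DMSO, between the single agents. The nuclear receptor gene NR4A1 had 6.68 and 9.72 CPM with the combination, against 8.02 and 7.47 CPM with ruxolitinib, 4.7 and 4.49 CPM with paclitaxel and 2.43 and 3.13 CPM with DMSO, higher in each treated group than with DMSO (1.27 with the combination). Among 29 genes that p53 can induce, 6 were higher and 2 lower, with 4 higher without combination library 1 and 4 without DMSO library 1. GADD45A, a growth arrest gene, had 32.5 and 29.99 CPM with the combination, against 15.5 and 14.5 CPM with ruxolitinib, 30.8 and 27.7 CPM with paclitaxel and 16.3 and 16.9 CPM with DMSO (0.87 ± 0.10 SE, adjusted p = 1.93e-06). Of 15 BCL2 family genes, 3 were higher and 3 lower. The rises were the BH3-only killers BMF (18.9 and 19.1 CPM with the combination, against 8.38 and 11.5 CPM with DMSO, 0.88 ± 0.16 SE, adjusted p = 0.00033), BIK (0.50) and BBC3 (0.64), and the falls were the survival genes MCL1 (-0.29) and BCL2L2 (-0.39) and the killer BOK (-0.56). The calls of BBC3, BCL2L2 and BOK were lost without combination library 1 (adjusted p = 0.168, 0.0871 and 0.125), those of BIK and MCL1 without DMSO library 1 (0.173 and 0.221).

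Among growth factor genes, IRS1, the docking protein of insulin and insulin-like growth factor receptors, had 20.3 and 21.5 CPM with the combination, against 23.4 and 22.02 CPM with ruxolitinib, 36.5 and 41.03 CPM with paclitaxel and 49.6 and 48.3 CPM with DMSO (-1.19 ± 0.10 SE, adjusted p = 2.68e-08). The ERBB ligand genes HBEGF and TGFA rose by 0.61 and 0.38 and BTC and EPGN fell (-0.76 and -0.49). TGFA lost its call without combination library 1 (adjusted p = 0.0999) and EPGN without DMSO library 1 (0.217). MUC1, a luminal mucin gene, had 170.3 and 198 CPM with the combination, against 235 and 229.8 CPM with ruxolitinib, 363 and 420.4 CPM with paclitaxel and 305 and 429 CPM with DMSO (-0.97 ± 0.12 SE, adjusted p = 6e-06). Of 30 histone cluster genes, 8 were higher and 0 lower (median 0.34), 4 higher without combination library 1. Of 48 cytosolic ribosomal protein genes, 0 were higher and 1 lower, with 10 lower without DMSO library 1 and 20 with GC content and length modelled.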
